A study of Mus musculus with 12 samples.

Results

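Transcripts of 5 liver genes (Alb, Afp, Apoa1, Apoa2 and Ttr) and of 5 skeletal muscle genes (Acta1, Myh3, Myl1, Tnnt3 and Ckm) were followed through RNA-seq libraries of whole mouse kidney as markers of other tissues. They are 10 of the 36186 genes in the deposited count table, found there by their symbols. Because they were chosen by their levels in these same libraries, with those levels known, their values are given as a description and without a test.

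RNA was taken from kidneys of embryos at E18.5, on a mixed strain background, and sequenced in 12 libraries, 3 per genotype. The 4 genotypes were wild type, Hoxa9,10,11-/- with HoxC9,10,11+/- (Hoxa-/- Hoxc+/-), Hoxa9,10,11+/- with HoxC9,10,11-/- (Hoxa+/- Hoxc-/-), and both clusters homozygous (double mutant). Expression is given in counts per 1000000 reads on genes (CPM) after TMM scaling. Libraries are named here by genotype and the number of their label (with AC before it in Hoxa+/- Hoxc-/-, as there). The study describes the sequenced double mutants as keeping wild type Hoxa11 on at least a single chromosome, while the labels list Hoxa11 as mutated in each of them, so the Hoxa11 genotype of a given double mutant library is uncertain. The 3 Hoxa+/- Hoxc-/- libraries came from run1646 and the other 9 from run1008, so in that comparison run and genotype cannot be told apart. Sex was unbalanced between genotypes. Xist, expressed from the inactive X chromosome of females, was 190 and 253 CPM in Hoxa-/- Hoxc+/- 31 and 33, 336 CPM in Hoxa+/- Hoxc-/- AC110, and 72.8 and 60.0 CPM in double mutants 27 and 29, and did not exceed 0.139 CPM in the other 7, all 3 wild type libraries among them, where the Y-linked Ddx3y was 54.3 to 93.5 CPM. The part of sex in the comparisons was not tested. Reads on genes ranged from 28616877 in Hoxa-/- Hoxc+/- 20 to 47067903 in Hoxa+/- Hoxc-/- AC110, with a median of 39328488, so that 3 counts, taken as the floor of detection, stood for 0.0614 to 0.115 CPM.

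Alb and Afp encode albumin and alpha-fetoprotein, the main plasma proteins of liver cells after and before birth, and Apoa1, Apoa2 and Ttr encode apolipoproteins of high-density lipoprotein and transthyretin, a plasma carrier of thyroxine. Fetal liver, gut, yolk sac and other epithelia share parts of this programme, and proximal tubules of the kidney use some of the same nuclear regulators as liver, HNF4A among them. Acta1, Myh3, Myl1 and Tnnt3 encode actin, embryonic myosin heavy chain, a myosin light chain and troponin T of the sarcomere of skeletal muscle, and Ckm encodes the creatine kinase that buffers its ATP. In the embryo both tissues lie next to the kidney.

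The targeted alleles carry frameshifts and leave RNA of the targeted genes, so their levels do not check the labels. Hoxa10 was 125, 152 and 164 CPM in wild type 30, 37 and 55, 152, 104 and 107 CPM in Hoxa-/- Hoxc+/- 20, 31 and 33, 112, 104 and 114 CPM in Hoxa+/- Hoxc-/- AC38, AC110 and AC115, and 101, 104 and 111 CPM in double mutants 24, 27 and 29. Hoxc10 was 50.1, 58.9 and 66.9 CPM in wild type, 120, 45.5 and 41.5 CPM in Hoxa-/- Hoxc+/-, 32.0, 36.6 and 51.7 CPM in Hoxa+/- Hoxc-/- and 37.9, 29.1 and 35.7 CPM in double mutants, in the same order of replicates. Over the 12 libraries Hoxa9 ranged from 23.9 to 40.4 CPM, Hoxa11 from 37.2 to 61.5 CPM, Hoxc9 from 9.14 to 32.4 CPM and Hoxc11 from 0.894 to 2.91 CPM. Transcripts of all 6 genes were present in every library.

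The kidney label was checked with 16 marker genes of nephron progenitors, podocytes, tubules and stroma, each of them present, which summed to between 2129 CPM in Hoxa-/- Hoxc+/- 20 and 5038 CPM in double mutant 27. Lrp2, the endocytic receptor megalin of the proximal tubule, was the most abundant at a mean of 769 CPM. Library Hoxa-/- Hoxc+/- 20 stood apart from its group. Its pairs with 31 and 33 had a mean squared difference of 275.2 and 298.6 in units of counting noise, against 15.7 to 73.6 for all other pairs within a genotype. It had the lowest depth, the lowest Slc34a1, the phosphate transporter of the proximal tubule, at 82.3 CPM against 266 to 1090 CPM elsewhere, and the highest Six2, a nephron progenitor regulator, at 162 CPM against 13.2 to 105 CPM.

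Alb was the liver transcript that varied most between libraries. The gene lies on chromosome 5 from 90460897 to 90476602 (GRCm38). Its neighbour is Afp, from 90490737 to 90508907, which starts 14134 bases after the end of Alb on the same strand. The windows of both, 250 bases before to 50 after the start in RefSeq of GRCm38.p6, lie at chr5:90460620-90460919 and chr5:90490464-90490763, both on the plus strand, and are shown because these neighbours differed in their pattern over the libraries. Capitals mark GTTAAT, a motif known from promoters of liver genes, CTANNNNTA, most of a MEF2 site, and TATAAA, the TATA box, searched on both strands, and no capitals of different motifs overlap.
Alb: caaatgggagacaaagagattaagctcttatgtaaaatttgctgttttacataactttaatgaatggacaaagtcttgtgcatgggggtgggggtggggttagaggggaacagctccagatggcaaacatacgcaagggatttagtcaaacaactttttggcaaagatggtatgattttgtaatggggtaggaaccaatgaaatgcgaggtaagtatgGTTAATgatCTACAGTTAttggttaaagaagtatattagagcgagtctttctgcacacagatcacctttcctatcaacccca
Afp: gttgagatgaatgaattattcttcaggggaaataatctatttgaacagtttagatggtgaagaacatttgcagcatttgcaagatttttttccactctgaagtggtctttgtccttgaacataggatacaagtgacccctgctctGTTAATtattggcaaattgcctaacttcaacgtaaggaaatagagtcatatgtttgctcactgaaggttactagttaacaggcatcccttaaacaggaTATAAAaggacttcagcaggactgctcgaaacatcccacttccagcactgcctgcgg
GTTAAT occurred 1 time in each of these windows and in 7.1% of 32851 promoter windows of the same length. Among the 8 members with a window it was found in these 2. TATAAA was found in the Afp window and CTANNNNTA in the Alb window, and matches of letters are a description only.

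Alb was at its lowest in the wild type group and in 1 mutant library. It was 1.09, 0.671 and 0.866 CPM in wild type 30, 37 and 55, 21.2, 16.5 and 0.369 CPM in Hoxa-/- Hoxc+/- 20, 31 and 33, 7.15, 2.17 and 24.7 CPM in Hoxa+/- Hoxc-/- AC38, AC110 and AC115, and 8.68, 16.0 and 3.02 CPM in double mutants 24, 27 and 29. Every Hoxa+/- Hoxc-/- and double mutant library lay above every wild type library, whereas Hoxa-/- Hoxc+/- overlapped wild type through library 33, the lowest of the 12. The 3 mutant groups overlapped each other throughout. Group means were 0.874 ± 0.208 CPM in wild type, 12.7 ± 10.9 CPM in Hoxa-/- Hoxc+/-, 11.3 ± 11.8 CPM in Hoxa+/- Hoxc-/- and 9.22 ± 6.49 CPM in double mutants (SD, n = 3 each). The SD was about as large as the mean in the 2 groups with a single homozygous cluster and smaller than the mean in double mutants. Without library 20 the mean of Hoxa-/- Hoxc+/- was 8.44 CPM, without AC115 that of Hoxa+/- Hoxc-/- was 4.66 CPM, and without 27 that of double mutants was 5.85 CPM. The highest library exceeded the lowest 66.9-fold, from 14 counts in Hoxa-/- Hoxc+/- 33 to 1187 counts in Hoxa+/- Hoxc-/- AC115. In bulk samples such as these, fewer cells of a type and less RNA per cell cannot be told apart.

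Separate groups were frequent over the whole table, which sets the scale for these orders. Of 15839 genes tested between double mutants and wild type, 38.1% had no overlap between the 3 and 3 libraries, and 13.7% passed the edgeR test at an adjusted p of 0.05. For Hoxa+/- Hoxc-/- against wild type 26.6% did not overlap, and 2.36% of 15902 passed.

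Ahsg, which encodes the plasma glycoprotein fetuin-A, had the profile closest to that of Alb. The root mean square difference of their centred log2 CPM over the 12 libraries was 0.41, and the next gene, Apoh, was at 0.84, where the SD of Alb was 2.09. Ahsg was 0.477, 0.139 and 0.322 CPM in wild type 30, 37 and 55, 6.01, 4.38 and 0.237 CPM in Hoxa-/- Hoxc+/- 20, 31 and 33, 2.58, 0.655 and 6.34 CPM in Hoxa+/- Hoxc-/- AC38, AC110 and AC115, and 2.57, 3.98 and 1.13 CPM in double mutants 24, 27 and 29. Hoxa+/- Hoxc-/- AC115 was highest for both genes, and the lowest library was wild type 37 for Ahsg and Hoxa-/- Hoxc+/- 33 for Alb. The ratio of Alb to Ahsg reads was 3.54 in Hoxa-/- Hoxc+/- 20 (95% exact interval 2.96 to 4.25), 3.77 in 31 (3.19 to 4.46), 3.89 in Hoxa+/- Hoxc-/- AC115 (3.43 to 4.43) and 4.01 in double mutant 27 (3.36 to 4.81), which are the 4 libraries with most Alb. These intervals cover counting error only, and over all 12 libraries the ratio ran from 1.56 to 4.83. Because Ahsg was picked for its likeness to Alb, a narrow range of this ratio follows from the choice.

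Apoa1, the main apolipoprotein of high-density lipoprotein, had the same high libraries as Alb. It was 0.132, 0.324 and 0.198 CPM in wild type 30, 37 and 55, 2.60, 1.23 and 0.211 CPM in Hoxa-/- Hoxc+/- 20, 31 and 33, 0.703, 0.471 and 2.39 CPM in Hoxa+/- Hoxc-/- AC38, AC110 and AC115, and 0.760, 1.15 and 0.357 CPM in double mutants 24, 27 and 29. Libraries Hoxa-/- Hoxc+/- 20 and Hoxa+/- Hoxc-/- AC115 were highest, followed by Hoxa-/- Hoxc+/- 31 and double mutant 27, and only Hoxa-/- Hoxc+/- 33 among the mutant libraries fell inside the wild type range. Its mean in Hoxa-/- Hoxc+/- was 1.35 ± 1.20 CPM (SD, n = 3) and 0.723 CPM without library 20. Fgg, the gamma chain of fibrinogen, was highest in Hoxa-/- Hoxc+/- 20 at 3.06 CPM, Hoxa+/- Hoxc-/- AC115 at 2.43 CPM and Hoxa-/- Hoxc+/- 31 at 2.13 CPM, against 0.277 to 0.371 CPM in wild type.

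**Figure D1:**
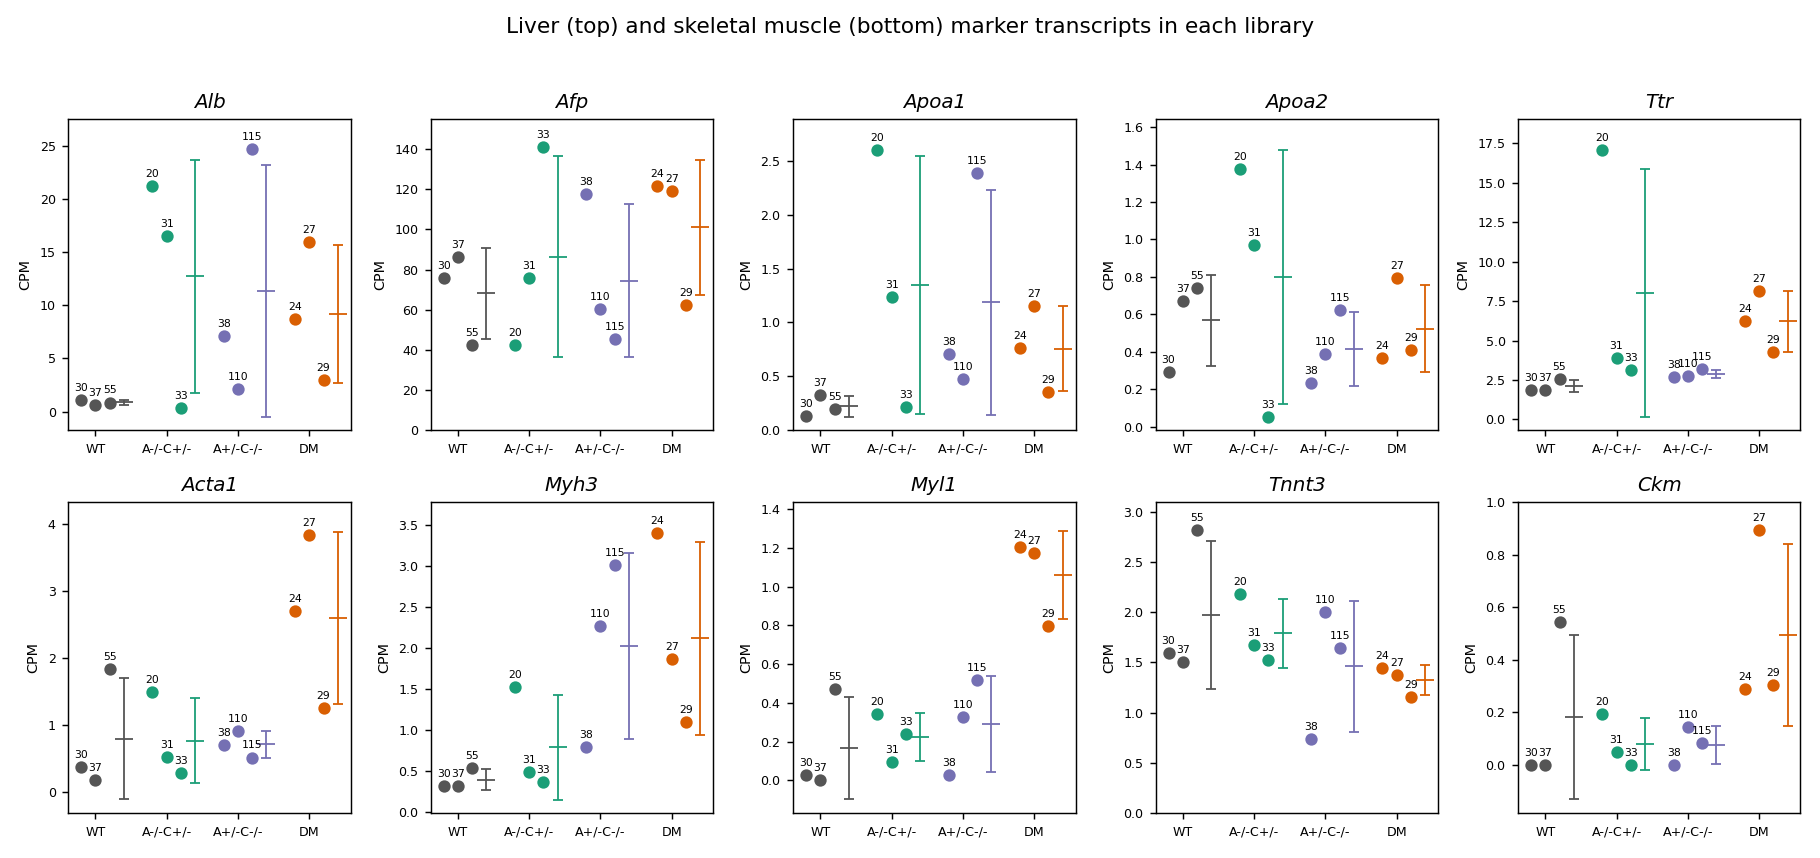
CPM of each of the 10 transcripts (vertical axes, linear) in each library by genotype, where WT is wild type, A-/-C+/- is Hoxa-/- Hoxc+/-, A+/-C-/- is Hoxa+/- Hoxc-/- and DM is double mutant. Points are single libraries with their number (AC left out), and the bar beside them is mean ± SD (n = 3); Alb was below 1.1 CPM in wild type and in Hoxa-/- Hoxc+/- 33, and reached 24.7 CPM in Hoxa+/- Hoxc-/- AC115.

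Afp had a different order of libraries. It was 75.6, 86.3 and 42.6 CPM in wild type 30, 37 and 55, 42.3, 76.05 and 141 CPM in Hoxa-/- Hoxc+/- 20, 31 and 33, 118, 60.5 and 45.3 CPM in Hoxa+/- Hoxc-/- AC38, AC110 and AC115, and 122, 119 and 62.1 CPM in double mutants 24, 27 and 29. Its highest library, Hoxa-/- Hoxc+/- 33, was the lowest for Alb, and the libraries with most Alb, Hoxa+/- Hoxc-/- AC115 and Hoxa-/- Hoxc+/- 20, were among the lowest for Afp. All 4 genotypes overlapped, with means of 68.2 ± 22.7, 86.4 ± 50.1, 74.6 ± 38.3 and 101 ± 33.7 CPM (SD, n = 3) in the order of genotypes just used. There were 382 Afp reads per Alb read in Hoxa-/- Hoxc+/- 33 (95% exact interval 228 to 699) and 1.84 in Hoxa+/- Hoxc-/- AC115 (1.71 to 1.97).

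Afp was by far the most abundant of the liver transcripts. Per kilobase of exon its mean level over the 12 libraries was 24.5 CPM per kb, against 4.06 CPM per kb for Ttr, 3.64 for Alb, 1.07 for Apoa2 and 0.710 for Apoa1. It made up 50% of the reads of the 5 liver genes in Hoxa-/- Hoxc+/- 20, 59.5% in Hoxa+/- Hoxc-/- AC115 and between 77.1% and 97.4% in the other libraries. A sum over the liver genes was therefore mostly Afp.

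Afp had its highest and its lowest library in common with a sum of genes that liver shares with the proximal tubule. The 13 genes fixed for this class, among them the nuclear receptor gene Hnf4a and Pck1 of gluconeogenesis, summed to 3255, 1679 and 1083 CPM in wild type 30, 37 and 55, 727.7, 2410 and 3921 CPM in Hoxa-/- Hoxc+/- 20, 31 and 33, 3365, 1653 and 1862 CPM in Hoxa+/- Hoxc-/- AC38, AC110 and AC115, and 2827, 3492 and 2158 CPM in double mutants 24, 27 and 29. Hoxa-/- Hoxc+/- 33 was highest and 20 lowest for this sum as for Afp, but the order of wild type 30 and 37 was opposite for the sum and for Afp, and all groups overlapped. All 13 genes had counts, but Hpd did not exceed 0.460 CPM, was at 0 in Hoxa+/- Hoxc-/- AC38 and was not above the floor in every other library. The genes closest to Afp in profile were Gpr137b, a lysosomal membrane protein gene, with a root mean square difference of 0.22 in centred log2 CPM over 12 libraries, and Slc16a12, a creatine transporter gene of the tubule, with 0.26, where the SD of Afp was 0.62. Gpr137b was 29.3 CPM in Hoxa-/- Hoxc+/- 33 and 9.11 CPM in 20, and Slc16a12 was 125 and 35.2 CPM there. These profiles of single transcripts were compared after the values had been seen.

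**Figure D2:**
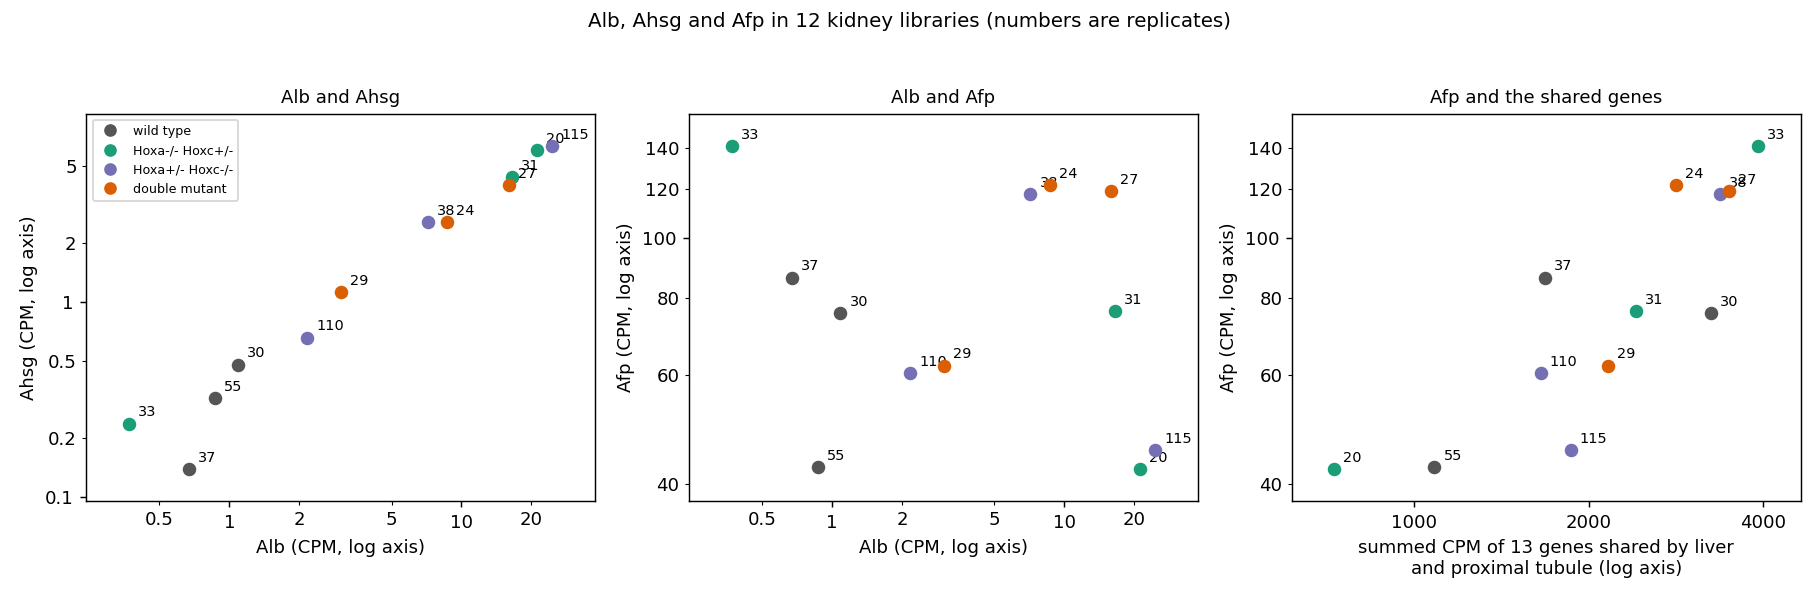
Each point is a library with its number (AC left out), coloured by genotype, on log axes in CPM. Ahsg follows Alb from 0.139 to 6.34 CPM (left), Afp does not follow Alb (middle), and Afp is plotted against the summed CPM of 13 genes shared by liver and proximal tubule, where Hoxa-/- Hoxc+/- 33 is highest in both (right).

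Ttr showed yet another pattern. It was 1.88, 1.87 and 2.57 CPM in wild type 30, 37 and 55, 17.1, 3.87 and 3.11 CPM in Hoxa-/- Hoxc+/- 20, 31 and 33, 2.67, 2.76 and 3.18 CPM in Hoxa+/- Hoxc-/- AC38, AC110 and AC115, and 6.26, 8.15 and 4.28 CPM in double mutants 24, 27 and 29. Library 20 was highest, the double mutants came next, and each mutant library lay above each wild type library. For Hoxa-/- Hoxc+/- against wild type, 8.33% of the 15789 tested genes had no overlap. In Hoxa+/- Hoxc-/- the 3 libraries stayed within 2.67 to 3.18 CPM although Alb there ran from 2.17 to 24.7 CPM, so the ratio of Alb to Ttr reads ran from 0.785 in AC110 to 7.76 in AC115. Group means were 2.11 ± 0.402 CPM in wild type, 8.03 ± 7.87 CPM in Hoxa-/- Hoxc+/- (3.49 CPM without library 20), 2.87 ± 0.272 CPM in Hoxa+/- Hoxc-/- and 6.23 ± 1.93 CPM in double mutants (SD, n = 3).

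Apoa2, the other apolipoprotein of high-density lipoprotein, gave no separation of genotypes. It was 0.291, 0.671 and 0.742 CPM in wild type 30, 37 and 55, 1.38, 0.968 and 0.0527 CPM in Hoxa-/- Hoxc+/- 20, 31 and 33, 0.234, 0.389 and 0.623 CPM in Hoxa+/- Hoxc-/- AC38, AC110 and AC115, and 0.367, 0.792 and 0.412 CPM in double mutants 24, 27 and 29. Libraries Hoxa-/- Hoxc+/- 20 and 31 were highest, 33 was under the floor of 3 counts, and every pair of groups overlapped.

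Most genes that define the hepatocyte were at or near 0. Among 18 hepatocyte enzyme, transporter and receptor genes, 1 (Ugt2b1) had no counts in any library, and Cyp7a1, the rate-limiting enzyme of bile acid synthesis, did not exceed 0.166 CPM, its value in Hoxa+/- Hoxc-/- AC115. Otc of the urea cycle reached at most 0.105 CPM, and Cps1, which feeds that cycle, was highest at 0.436 CPM in Hoxa+/- Hoxc-/- AC115 and 0.306 CPM in Hoxa-/- Hoxc+/- 20, against 0 to 0.0990 CPM in wild type. Cyp2e1, a cytochrome P450 gene that made up most of this list at a mean of 6.11 CPM, was 0.765 CPM in Hoxa-/- Hoxc+/- 20, the lowest of the 12, and 12.9 CPM in double mutant 27. The summed list was 11.95, 5.13 and 4.97 CPM in wild type, 6.12, 9.49 and 11.0 CPM in Hoxa-/- Hoxc+/-, 12.3, 6.88 and 10.5 CPM in Hoxa+/- Hoxc-/- and 13.5, 18.8 and 8.10 CPM in double mutants, in the order of replicates used above, and did not follow Alb. Double mutant 27 was its highest library. Without Cyp2e1 the sum was highest in double mutant 27 at 5.925 CPM, Hoxa-/- Hoxc+/- 20 at 5.36 CPM and Hoxa+/- Hoxc-/- AC115 at 5.03 CPM. These libraries were also high in Alb. Hoxa-/- Hoxc+/- 31, high in Alb as well, was at 2.90 CPM, wild type ran from 2.08 to 3.79 CPM, and each mutant group overlapped wild type.

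Hepatocyte secreted proteins, 40 genes besides the members, were dominated by Serpina6, which encodes corticosteroid-binding globulin, at a mean of 201.8 CPM. With Serpina6 the list summed to 352.5, 263 and 257.9 CPM in wild type 30, 37 and 55, 206.7, 267.9 and 243.4 CPM in Hoxa-/- Hoxc+/- 20, 31 and 33, 278.4, 159.6 and 205.6 CPM in Hoxa+/- Hoxc-/- AC38, AC110 and AC115, and 199.1, 598.1 and 249.2 CPM in double mutants 24, 27 and 29. Double mutant 27 stood far above the rest and the groups overlapped. Without that gene the sum was 47.8, 41.7 and 45.9 CPM in wild type, 73.8, 82.4 and 57.4 CPM in Hoxa-/- Hoxc+/-, 67.6, 47.4 and 90.5 CPM in Hoxa+/- Hoxc-/- and 94.0, 133.7 and 77.1 CPM in double mutants. Then only Hoxa+/- Hoxc-/- AC110, at 47.4 CPM, lay within the wild type range. Hamp, F9 and Mbl2, which encode hepcidin, a clotting factor and a lectin made by hepatocytes, did not exceed 0.0416, 0.106 and 0.0530 CPM.

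Skeletal muscle transcripts were low and shared only some of the libraries high in Alb. Per kilobase of exon their means over the 12 libraries were 1.03 CPM per kb for Tnnt3, 0.794 for Acta1, 0.220 for Myh3, 0.210 for Myl1 and 0.0714 for Ckm. The promoter windows of Acta1 and Myh3, at chr8:123894726-123895025 on the minus strand and chr11:67078050-67078349 on the plus strand of GRCm38.p6 in RefSeq, are shown because these 2 genes, the adult actin and the embryonic myosin of the sarcomere, parted in 2 of the libraries. Acta1 spans 123891769 to 123894751 on chromosome 8 and Myh3 spans 67078300 to 67102291 on chromosome 11, and both, like the other members, are annotated as protein coding. Capitals mark the same motifs as above.
Acta1: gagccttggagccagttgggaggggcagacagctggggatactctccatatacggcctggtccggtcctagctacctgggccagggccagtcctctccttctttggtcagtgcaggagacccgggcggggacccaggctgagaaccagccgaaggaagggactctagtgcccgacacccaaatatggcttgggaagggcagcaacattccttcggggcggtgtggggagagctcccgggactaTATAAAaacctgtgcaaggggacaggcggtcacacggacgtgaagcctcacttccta
Myh3: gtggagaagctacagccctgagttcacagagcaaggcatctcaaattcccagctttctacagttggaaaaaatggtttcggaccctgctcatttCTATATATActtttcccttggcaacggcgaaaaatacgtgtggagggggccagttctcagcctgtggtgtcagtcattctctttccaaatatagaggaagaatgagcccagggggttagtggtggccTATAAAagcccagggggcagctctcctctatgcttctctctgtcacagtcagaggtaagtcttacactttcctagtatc
TATAAA occurred in both windows, in 5 of the 8 members searched (without Ttr and Tnnt3), and in 13.6% of all windows. CTANNNNTA occurred in the Myh3 window, in 3 of the 8 members and in 21.0% of all windows. The E-box CANNTG, left in lower case and bound by myogenic and many other factors, occurred 2 times in the Acta1 window and 1 time in the Myh3 window, in all 8 members and in 72.3% of all windows.

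Acta1, skeletal muscle actin, was highest in double mutants 24 and 27. It was 0.371, 0.185 and 1.83 CPM in wild type 30, 37 and 55, 1.49, 0.532 and 0.290 CPM in Hoxa-/- Hoxc+/- 20, 31 and 33, 0.703, 0.921 and 0.519 CPM in Hoxa+/- Hoxc-/- AC38, AC110 and AC115, and 2.70, 3.83 and 1.26 CPM in double mutants 24, 27 and 29. Wild type 55 exceeded double mutant 29 and all 6 libraries of the other mutant genotypes, so double mutants and wild type overlapped. Group means were 0.796 ± 0.902 CPM in wild type (0.278 CPM without library 55), 0.772 ± 0.636 CPM in Hoxa-/- Hoxc+/- (0.411 CPM without library 20), 0.715 ± 0.201 CPM in Hoxa+/- Hoxc-/- and 2.60 ± 1.29 CPM in double mutants (SD, n = 3).

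Ckm, the creatine kinase of mature fibres, was near the floor in most libraries. It was 0, 0 and 0.544 CPM in wild type 30, 37 and 55, 0.191, 0.0484 and 0 CPM in Hoxa-/- Hoxc+/- 20, 31 and 33, 0, 0.143 and 0.0831 CPM in Hoxa+/- Hoxc-/- AC38, AC110 and AC115, and 0.288, 0.894 and 0.302 CPM in double mutants 24, 27 and 29. Double mutant 27, with 35 counts, and wild type 55, with 22, were highest, and double mutants overlapped wild type through 55. Ckm shares 451 bases of exon with the antisense gene A930016O22Rik, and since the counting is not stated to use strand its values are uncertain. Acta1 and Ckm had the smallest difference in profile of any pair of members, with a root mean square of 0.59 in centred log2 CPM.

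Myl1, a light chain of fast muscle myosin, was 0.0265, 0 and 0.470 CPM in wild type 30, 37 and 55, 0.344, 0.0968 and 0.237 CPM in Hoxa-/- Hoxc+/- 20, 31 and 33, 0.0293, 0.328 and 0.519 CPM in Hoxa+/- Hoxc-/- AC38, AC110 and AC115, and 1.21, 1.17 and 0.796 CPM in double mutants 24, 27 and 29. Each double mutant library lay above each of the other 9, on 29 to 46 counts against at most 25, while the other 3 groups overlapped. Between double mutants and Hoxa-/- Hoxc+/- 22.5% of 15764 genes did not overlap. For double mutants against Hoxa+/- Hoxc-/-, where the runs also differ, this share is not given here. Wild type 55 had 19 counts, where wild type 30 had 1 and 37 had 0.

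Myh3, the embryonic myosin heavy chain, had its own order. It was 0.318, 0.324 and 0.544 CPM in wild type 30, 37 and 55, 1.53, 0.484 and 0.369 CPM in Hoxa-/- Hoxc+/- 20, 31 and 33, 0.791, 2.27 and 3.01 CPM in Hoxa+/- Hoxc-/- AC38, AC110 and AC115, and 3.41, 1.86 and 1.10 CPM in double mutants 24, 27 and 29. Hoxa+/- Hoxc-/- AC110 and AC115 reached the level of double mutants, although their Acta1 was 0.921 and 0.519 CPM, and wild type 55 was low. Both Hoxa+/- Hoxc-/- and double mutants lay above wild type, whereas Hoxa-/- Hoxc+/- overlapped it, with a mean of 0.794 ± 0.640 CPM (SD, n = 3) and of 0.426 CPM without library 20. The ratio of Acta1 to Myh3 reads was 3.36 in wild type 55 (95% exact interval 2.07 to 5.69), 2.06 in double mutant 27 (1.54 to 2.76) and 0.172 in Hoxa+/- Hoxc-/- AC115 (0.108 to 0.265), intervals that cover counting error only.

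Tnnt3, troponin T of fast muscle, was the most abundant and the least variable of the muscle transcripts. It was 1.59, 1.50 and 2.82 CPM in wild type 30, 37 and 55, 2.18, 1.67 and 1.53 CPM in Hoxa-/- Hoxc+/- 20, 31 and 33, 0.733, 2.01 and 1.64 CPM in Hoxa+/- Hoxc-/- AC38, AC110 and AC115, and 1.44, 1.38 and 1.15 CPM in double mutants 24, 27 and 29. Wild type 55 was highest, and the double mutants, which led for Acta1 and Myl1, lay below every wild type library here. Tnnt3 was 15.1% of the reads of the 5 muscle genes in double mutant 27 and 74.7% in wild type 37.

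**Figure D3:**
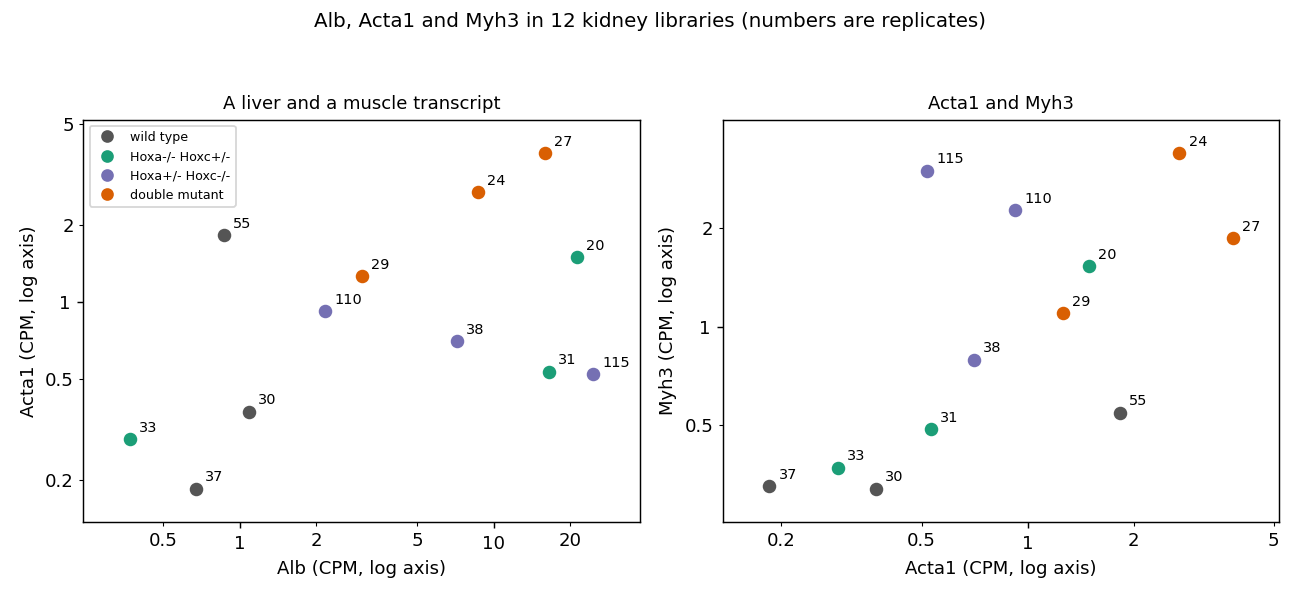
Each point is a library with its number (AC left out), coloured by genotype, on log axes in CPM. Left, Alb against Acta1: wild type 55 has Acta1 at 1.83 CPM with Alb at 0.866 CPM, and Hoxa+/- Hoxc-/- AC115 has Alb at 24.7 CPM with Acta1 at 0.519 CPM; right, Acta1 against Myh3, where wild type 55 and Hoxa+/- Hoxc-/- AC115 lie on opposite sides.

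Liver and muscle transcripts marked the same libraries only in part. Wild type 55 had 0.473 Alb reads per Acta1 read (95% exact interval 0.307 to 0.716), while Hoxa+/- Hoxc-/- AC115 had 47.5 (32 to 73.7) and Hoxa-/- Hoxc+/- 31 had 31. Double mutants 24 and 27 and Hoxa-/- Hoxc+/- 20 were high in both, at 3.21, 4.17 and 14.2 Alb reads per Acta1 read. Wild type 30 and 37 and Hoxa-/- Hoxc+/- 33 were low in both, and double mutant 29 was lower than the other 2 double mutants for Alb, Acta1, Myh3 and Myl1.

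Sums over each tissue depended on its most abundant gene. The 5 liver genes summed to 79.0, 89.8 and 47.02 CPM in wild type, 84.6, 98.6 and 144.6 CPM in Hoxa-/- Hoxc+/-, 128.6, 66.3 and 76.2 CPM in Hoxa+/- Hoxc-/- and 137.9, 145.2 and 70.2 CPM in double mutants, and every pair of groups overlapped. Without Afp the sums were 3.39, 3.54 and 4.38 CPM, 42.3, 22.6 and 3.74 CPM, 10.8, 5.79 and 30.9 CPM, and 16.1, 26.1 and 8.07 CPM, so that of the mutant libraries only Hoxa-/- Hoxc+/- 33 lay within the wild type range. The log2 ratio of mean sums to wild type was 0.71 in double mutants, 0.60 in Hoxa-/- Hoxc+/- and 0.33 in Hoxa+/- Hoxc-/- with Afp, and 2.15, 2.60 and 2.07 without it. Leaving out Hoxa+/- Hoxc-/- AC38 took 0.33 to -0.01, and leaving out Hoxa-/- Hoxc+/- 20 took 0.60 to 0.76. The sums without Afp were also compared with 1 library left out, a choice made after seeing the data. Without Hoxa-/- Hoxc+/- 20 the ratio of 2.60 became 1.80, and without Hoxa+/- Hoxc-/- AC115 that of 2.07 became 1.13.

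The 5 muscle genes summed to 2.31, 2.01 and 6.21 CPM in wild type 30, 37 and 55, 5.74, 2.83 and 2.42 CPM in Hoxa-/- Hoxc+/- 20, 31 and 33, 2.26, 5.67 and 5.78 CPM in Hoxa+/- Hoxc-/- AC38, AC110 and AC115, and 9.04, 9.14 and 4.61 CPM in double mutants 24, 27 and 29. Double mutants 24 and 27 were highest and wild type 55 came next, above double mutant 29. The log2 ratio of mean sums to wild type was 1.12 in double mutants, 0.06 in Hoxa-/- Hoxc+/- and 0.38 in Hoxa+/- Hoxc-/-. Wild type 55 and Hoxa-/- Hoxc+/- 20 carried much of these values. Without wild type 55 the ratios were 1.82, 0.76 and 1.08, and the ratio of Hoxa-/- Hoxc+/- was -0.17, -0.22 and -0.42 without wild type 30, wild type 37 or library 20. Without Tnnt3 the ratios were 2.03 in double mutants, 0.28 in Hoxa-/- Hoxc+/- and 1.01 in Hoxa+/- Hoxc-/-. Without both Tnnt3 and wild type 55 they were 3.36, 1.61 and 2.34, and that of Hoxa-/- Hoxc+/- was -0.06, -0.13 and -0.58 without Tnnt3 and wild type 30, wild type 37 or library 20, omissions paired after seeing the data.

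Companion genes of the liver were compared between genotypes with edgeR, in fits of all genes of the 6 libraries concerned. In double mutants against wild type, 6 of 25 tested genes of hepatocyte secreted proteins (of 40 listed) rose and 0 fell, beside 13.7% of all 15839 genes, 999 higher and 1172 lower. The median log2 fold change of the 25 was 0.62, against -0.01 over all genes. Counts over the table moved with single libraries, from 2171 to 3386 without wild type 30, 535 without wild type 37, 633 without wild type 55, 793 without double mutant 24 and 1101 without double mutant 27. With them the count of liver companions past the threshold became 9, 2, 3, 4 and 5. Trf, which encodes the iron carrier transferrin, rose by 1.25 ± 0.16 (log2 fold change ± SE; edgeR with Benjamini-Hochberg adjustment, adjusted p = 0.00536), from 11.6, 11.3 and 12.8 CPM in wild type to 28.5, 34.7 and 22.1 CPM in double mutants. Fetub, which encodes fetuin-B, rose by 2.01 ± 0.29 (adjusted p = 0.00699 by edgeR), and C3, the central complement protein, by 2.39 ± 0.44 (adjusted p = 0.0161 by edgeR). Each of the 6 was higher in 3 of 3 double mutant libraries than in any wild type library, as were 10 of the 25 in all, beside 17.2% of all genes tested, and 0 of the 25 lay lower in this way, beside 20.9% of all.

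Ahsg rose by 3.04 ± 0.57 (adjusted p = 0.0172 by edgeR), Rbp4, the plasma carrier of retinol, by 1.61 ± 0.31 (adjusted p = 0.0179 by edgeR) and Fgg by 1.65 ± 0.44 (adjusted p = 0.0461 by edgeR). Ahsg had the profile closest to Alb, and Fgg the one closest to Apoa1 and to the liver mean. Those members were chosen by their levels in these libraries, so the calls of Ahsg and Fgg are not independent of that choice. Ahsg also had only 6 counts in wild type 37, under the minimum of 10, and needed double mutant counts to be tested. Trf and Fetub stayed past the threshold when any library was left out. C3 reached 0.0699 and 0.0688 without wild type 37 or 55, and Rbp4 0.0725 and 0.0696. Ahsg reached 0.0641, 0.0694 and 0.0515 without wild type 37, wild type 55 or double mutant 24. Fgg was lost without any of wild type 30, 37 and 55 and double mutants 24 and 27, at adjusted p from 0.0599 to 0.155. Over all alternatives the adjusted p of Trf ran from 1.21e-10 to 0.0393, of Fetub from 1.18e-05 to 0.0541, of C3 from 0.00028 to 0.0699, of Ahsg from 2.38e-06 to 0.139, of Rbp4 from 3.83e-06 to 0.0725 and of Fgg from 0.0171 to 0.212.

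The other lists near liver gave no call by edgeR. Hepatocyte enzymes had 0 of 4 tested genes past the threshold by edgeR (18 listed), 0 at an unadjusted p under 0.05, with a median of 0.60. Genes shared by liver and proximal tubule had 0 of 12 past it by edgeR, 2 at an unadjusted p under 0.05, although the log2 fold change was positive for all 12, with a median of 0.52. By DESeq2 8 genes of the secreted protein and enzyme lists together passed, and by limma 5. Of 8 listed genes of intestinal epithelium, an epithelium that also makes apolipoproteins, 0 of 3 tested passed by edgeR, 1 at an unadjusted p under 0.05, with a median of 0.32; Fabp2, the intestinal fatty acid binding protein, was at 0 in every library.

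Companion genes of skeletal muscle showed no common direction in double mutants against wild type. Of 22 tested contractile genes (27 listed) 0 passed by edgeR, 4 at an unadjusted p under 0.05, with 12 positive and 10 negative log2 fold changes and a median of 0.26. The 14 tested genes of excitation and metabolism (22 listed) had a median of 0.06. Of these, 2 fell and 0 rose, near the share of 13.7% past the threshold among all 15839 genes. Both were Jph1 and Jsrp1, which encode proteins of the junction between the cell membrane and the calcium store of the fibre, at -0.68 ± 0.18 and -0.93 ± 0.25 (adjusted p = 0.0428 and 0.0491 by edgeR). They passed only without wild type 30 when 1 library was left out, and their adjusted p ran from 0.0154 to 0.166 and from 0.0189 to 0.225 over the alternatives. By DESeq2 6 genes of these 2 lists passed, and by limma 1. The share of 13.7% by edgeR also sets the scale for counts of the later lists in this comparison.

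Myh8, the perinatal myosin heavy chain, was the gene closest to Acta1 in profile, with a root mean square difference of 0.64, and was picked for this after the values had been seen. It was 0.291, 0.162 and 1.48 CPM in wild type 30, 37 and 55, 0.497, 0.290 and 0.316 CPM in Hoxa-/- Hoxc+/- 20, 31 and 33, 0.176, 0.328 and 0.603 CPM in Hoxa+/- Hoxc-/- AC38, AC110 and AC115, and 1.49, 3.65 and 0.494 CPM in double mutants 24, 27 and 29. As for Acta1, double mutants 24 and 27 and wild type 55 were highest and the groups overlapped. Myh1, Myh2 and Myh4, the adult fast myosins, did not exceed 0.225, 0.0831 and 0.153 CPM. The contractile list summed to between 29.9 and 63.7 CPM, highest in Hoxa-/- Hoxc+/- 20, with Tnnt1 of slow muscle most abundant at a mean of 7.02 CPM, and the list of excitation and metabolism to between 84.8 and 116.7 CPM with Pygm, muscle glycogen phosphorylase, at a mean of 48.5 CPM. Neither sum followed Acta1.

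Myogenic regulators were detected at low levels. Myog, which drives the differentiation of myoblasts, was 0.106, 0.0462 and 0.148 CPM in wild type 30, 37 and 55, 0.804, 0.145 and 0.263 CPM in Hoxa-/- Hoxc+/- 20, 31 and 33, 0.176, 0.737 and 0.519 CPM in Hoxa+/- Hoxc-/- AC38, AC110 and AC115, and 1.44, 0.664 and 0.439 CPM in double mutants 24, 27 and 29. Double mutants lay above wild type, and libraries 20, AC110 and AC115 reached them, as for Myh3. It was the 1 gene of 4 tested (10 listed) to pass in double mutants against wild type, where it rose by 3.05 ± 0.62 (adjusted p = 0.0214 by edgeR). Myog had 4, 2 and 6 counts in wild type 30, 37 and 55, under the minimum of 10 for testing. It was therefore tested only through its counts in double mutants and could not have been called lower. The adjusted p was 0.0867, 0.0620 and 0.0566 without wild type 37, wild type 55 or double mutant 24, and ran from 0.000724 to 0.0867 over the alternatives. The median of this list was 0.03. Myod1 reached 0.460 CPM in double mutant 27 and was at 0 in 5 of the other libraries, Pax7 and Myf5 did not exceed 0.123 and 0.0511 CPM, and Myf6 was at 0 in all 12.

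Actc1 and smooth muscle genes moved in the same comparison. Actc1, cardiac actin, which embryonic skeletal muscle also uses, rose by 2.39 ± 0.34 (adjusted p = 0.00704 by edgeR), from 0.636, 0.578 and 1.26 CPM in wild type to 4.98, 4.85 and 3.24 CPM in double mutants, and was 4.78 CPM in Hoxa-/- Hoxc+/- 20. Its adjusted p ran from 1.41e-09 to 0.0554 over the alternatives. With Myl3, a ventricular light chain, at 1.36 ± 0.32 (adjusted p = 0.0336 by edgeR), 2 of 7 tested cardiac genes (10 listed) rose and 0 fell, with a median of 0.65. Myl3 was lost when any of the 6 libraries was left out, at adjusted p from 0.0554 to 0.133. Nkx2-5, which defines heart muscle, was at 0 in all libraries, and the list summed to between 5.30 and 11.1 CPM with Ryr2, a calcium release channel, most abundant at a mean of 2.87 CPM.

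Of 9 smooth muscle genes, 4 (Actg2, Acta2, Myh11 and Tagln) rose and 0 fell, with a median of 0.54. The list summed to 722.1, 804.3 and 724 CPM in wild type 30, 37 and 55, 965.4, 688.7 and 725.7 CPM in Hoxa-/- Hoxc+/- 20, 31 and 33, 675.8, 735.6 and 775.1 CPM in Hoxa+/- Hoxc-/- AC38, AC110 and AC115, and 1001, 1084 and 974.7 CPM in double mutants 24, 27 and 29, with Acta2, smooth muscle actin, at a mean of 410.2 CPM. The double mutants lay above all other libraries and Hoxa-/- Hoxc+/- 20 came next. Actg2, the actin of visceral smooth muscle, rose by 1.49 ± 0.18 (adjusted p = 0.00415 by edgeR; 1.81e-11 to 0.105 over the alternatives). Without wild type 55 the adjusted p of Acta2 by edgeR was 0.0538, and without wild type 37 or 55 Myh11 and Tagln passed the threshold no longer, at 0.0564 to 0.0887. Over the alternatives the adjusted p ran from 1.74e-06 to 0.131 for Acta2, from 0.000165 to 0.234 for Myh11 and from 0.000365 to 0.155 for Tagln. Smooth muscle belongs to the kidney itself, and the part of these genes in the values of Acta1, Myl1 and Myh3 was not tested.

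**Figure D4:**
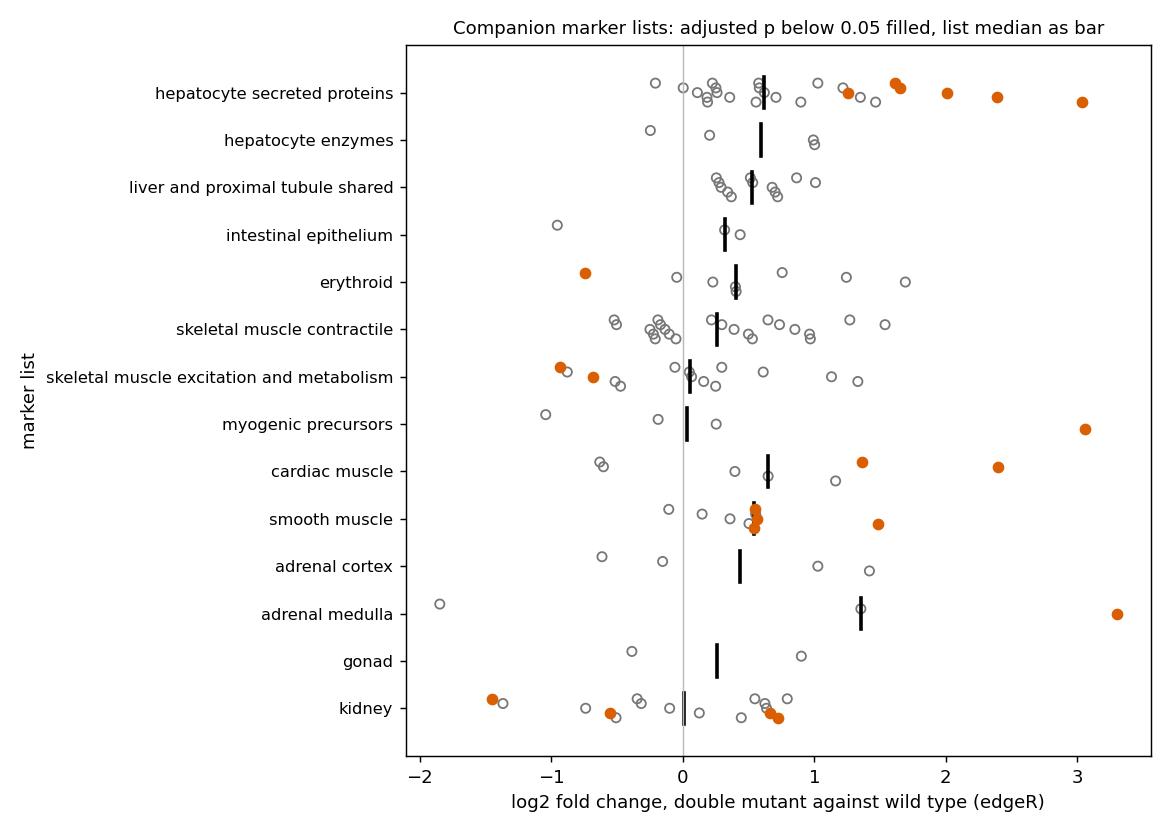
Each point is a tested gene of a marker list (vertical axis) at its log2 fold change in double mutants against wild type by edgeR (horizontal axis), filled where the adjusted p was below 0.05, with the median of the list as a bar. Hepatocyte secreted proteins have 6 filled points, all above 0, and contractile genes of skeletal muscle have 0; vertical offsets within a list only separate the points.

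Hoxa-/- Hoxc+/- against wild type gave no call. By edgeR 0 of 15789 genes passed (0% of those tested), with 360 at an unadjusted p under 0.05, 18 by DESeq2 and 1 by limma. Among 28 tested liver companion genes (secreted proteins and enzymes) the log2 fold change was positive for 23, with 5 at an unadjusted p under 0.05 and a median of 0.49 against 0.03 over all genes. Among 32 tested companions of skeletal muscle (contractile, excitation and metabolism) 14 were positive, 1 had an unadjusted p under 0.05, and the median was -0.06. DESeq2 and limma called 0 genes of these lists. Without Hoxa-/- Hoxc+/- 20 edgeR called 8 genes of the table and 1 muscle companion.

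Hoxa+/- Hoxc-/- against wild type, where the runs differ, gave 376 of 15902 genes past the threshold (2.36%), 133 higher and 243 lower, and 60 without wild type 37, 70 without wild type 55, 63 without Hoxa+/- Hoxc-/- AC110 and 99 without AC115. Among 30 tested liver companions 0 passed by edgeR, 9 had an unadjusted p under 0.05, 24 were positive, and the median was 0.43 against 0.01 over all genes. DESeq2 called 5 of them and limma 0. Among 34 tested muscle companions 0 passed by edgeR, 7 had an unadjusted p under 0.05, 18 were positive, and the median was 0.03. DESeq2 called 1 of these and limma 0. Ahsg, from 0.139 to 0.477 CPM in wild type against 0.655 to 6.34 CPM, had the lowest adjusted p of the liver companions at 0.09 by edgeR. Without wild type 55 or Hoxa+/- Hoxc-/- AC38, 1 liver companion passed.

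Double mutants against Hoxa-/- Hoxc+/- gave 0 of 15764 genes by edgeR (0% of those tested), with 1787 at an unadjusted p under 0.05, 489 by DESeq2 and 1 by limma. Of 33 tested liver companions 0 passed by edgeR, 4 had an unadjusted p under 0.05 and 20 were positive, with a median of 0.17 against -0.01 over all genes. Of 32 tested muscle companions 0 passed by edgeR, 4 had an unadjusted p under 0.05 and 19 were positive, with a median of 0.08. DESeq2 called 1 gene of each and limma 0. Without Hoxa-/- Hoxc+/- 20 edgeR called 687 genes, 1 of them a liver and 1 a muscle companion. The log2 ratio of mean sums of the members was 0.11 for liver (-0.07 without double mutant 27, -0.45 without Afp, and 0.35 without both Afp and Hoxa-/- Hoxc+/- 20) and 1.05 for muscle (1.53 without Hoxa-/- Hoxc+/- 20, 1.75 without Tnnt3, and 2.61 without both). The 3 comparisons with wild type share its libraries, and this one shares libraries with 2 of them, so they are not independent of each other.

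Genes closest to the mean profile of each tissue were found by the root mean square difference of centred log2 CPM over the 12 libraries. For liver, with an SD of 0.90, they were Fgg at 0.46, Slc17a8 at 0.48, Caln1 at 0.49, Trf at 0.49, Ptchd1 at 0.52, Rgs10 and Itih3 at 0.53 and Tecta at 0.55. Fgg, Trf and Itih3, an inter-alpha-trypsin inhibitor chain, are hepatocyte secretory genes, and the other 5 are not. Slc17a8, a vesicular glutamate transporter gene, was 10.3 CPM in Hoxa-/- Hoxc+/- 20, 8.53 CPM in double mutant 27 and 1.26 CPM in Hoxa-/- Hoxc+/- 33. For skeletal muscle, with an SD of 1.02, the closest were Fam180a at 0.42, Hyi and 6430411K18Rik at 0.47, Actc1 at 0.49, Folr2 at 0.51, Gjb5 at 0.55, Scn3b at 0.56 and Pi16 at 0.56, of which only Actc1 is a sarcomere gene. Folr2 and Pi16 are known from macrophages and fibroblasts.

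Other tissues were represented by further lists in double mutants against wild type. Erythroid genes summed to between 158 CPM in Hoxa-/- Hoxc+/- 20 and 348.4 CPM in Hoxa+/- Hoxc-/- AC115, with Tfrc, the transferrin receptor, most abundant at a mean of 202 CPM, and of 8 tested (12 listed) 1 fell, Epor, the erythropoietin receptor gene, at -0.74 ± 0.18 (adjusted p = 0.0358 by edgeR; 0.00494 to 0.142 over the alternatives), 0 rose, and the median was 0.40. Epor was lost without wild type 37 or 55 and without double mutant 24 or 27. Alas2, the heme synthesis enzyme of red cells, was 161 CPM in Hoxa+/- Hoxc-/- AC115, the library with most Alb, and 18.4 to 73.2 CPM elsewhere. Without Tfrc the erythroid sum was 192.1 CPM in AC115 and 101.1, 85.2 and 71.1 CPM in double mutants 24, 27 and 29. In Hoxa-/- Hoxc+/- 20 and 31, next highest for Alb, it was 45.2 and 48.1 CPM, within the wild type range of 39.4 to 67.7 CPM. Fetal liver is a site of red cell formation, and the part of blood in the level of Alb was not tested. Among the kidney genes Foxd1 of the stroma rose, Cited1 of nephron progenitors and Lhx1 of the early nephron fell. The median over the 16 was 0.01. By edgeR Foxd1 was lost with all 12 libraries in the fit (adjusted p = 0.189) and with the 9 libraries of 1 run (adjusted p = 0.274), and its adjusted p ran from 5.35e-06 to 0.274 over the alternatives. Cited1 was lost without wild type 37 or 55 or double mutant 24 or 27, and Lhx1 without wild type 37 or 55 or double mutant 24 or 29, with adjusted p from 0.00244 to 0.11 and from 0.00298 to 0.136 over the alternatives, by edgeR and the other tools.

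Tissues next to the kidney gave smaller sums. Genes of the adrenal medulla summed to 8.40 CPM in double mutant 29 and to between 1.85 and 3.21 CPM in the other 11, and 1 of 3 tested (6 listed) rose, Chgb, a protein of secretory granules, at 3.30 ± 0.74 (adjusted p = 0.0286 by edgeR; 0.000718 to 0.0972 over the alternatives), with a list median of 1.35. Chgb was lost without wild type 37, wild type 55 or double mutant 27. With 2, 5 and 4 counts in wild type 30, 37 and 55, under the minimum of 10, it was tested only through the double mutants. A fall of Chgb could thus not have been called. Adrenal cortex genes were highest in Hoxa-/- Hoxc+/- 20 at 13.3 CPM and double mutant 29 at 11.3 CPM, against 4.91 to 7.96 CPM elsewhere, with 0 of 4 tested past the threshold by edgeR, 2 at an unadjusted p under 0.05 and a median of 0.44. In library 20 the receptor gene Mc2r made up 8.53 CPM of that sum, and Cyp11a1, Cyp11b1 and Cyp21a1, enzymes of steroid synthesis, were at 0 there, whereas in double mutant 29 these 3 enzymes had their highest values, at 1.87, 0.741 and 0.878 CPM. Double mutant 29, highest for the medulla, had the lowest Alb, Acta1, Myh3 and Myl1 of its group. Adipose genes did not exceed 0.604 CPM in sum and had no gene tested, and Lep was at 0. Gonad genes summed to between 0.533 and 1.70 CPM, with Hsd17b3 at 0, and 0 of 2 tested genes passed by edgeR, 0 at an unadjusted p under 0.05, with a median of 0.26.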

How the data were processed

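The authors sequenced paired reads, aligned them to mm10, dropped reads with more than 1 alignment, and used Strand NGS to make the expected counts they deposited for each gene; the counting settings and the use of strand are not given in the sources used here. They also deposited normalized log2 values, centred per gene on the median of the 12 libraries, which were used only with limma. Removal of multiply aligned reads lowers counts of genes with near-identical copies, such as the Serpina1 genes and in part the actins and myosins, so these are uncertain.

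Expected counts were rounded and analysed in R 4.3.3 with edgeR 4.0.16 (quasi-likelihood test, TMM factors, filterByExpr with a minimum count of 10 and a total of 15). Each fit held the 6 libraries compared, p-values were adjusted by Benjamini-Hochberg over all genes tested, and the threshold was 0.05. The labels do not say whether libraries came from separate litters or embryos, so p-values measure only the spread between these samples, which may be technical. Log2 CPM used a prior count of 2, and CPM used TMM factors of all 12 libraries. The floor was 3 counts, and ratios of reads have exact Clopper-Pearson 95% intervals; both cover counting error only. Of 92 symbols listed more than once, the entry with most reads kept the symbol. Replicates of a genotype were compared gene by gene where counts reached 50, and all pairs differed by more than counting noise. Exon lengths came from GENCODE M21 and promoters from RefSeq (GRCm38.p6). Plots were made with Python 3.11.15, pandas 2.3.3 and matplotlib 3.10.9.

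The members and the marker lists were chosen with earlier results of these data known. Genes named are the members, the targeted and sex-linked genes, the 5 most abundant genes and up to 5 largest calls of each list, and the 8 genes nearest to each tissue's mean profile; any other gene named was chosen after its values were seen. Epb42 and Mymk were not found in the table. The alternatives tried were DESeq2 1.42.0, library size only, RLE factors, no filter beyond 1 count, all 12 libraries or the 9 of 1 run in the fit, limma 3.58.1 on the deposited values as they are, sums without the most abundant member or as a mean of log2 values, and leaving out each library. Sums without the most abundant member were also computed with each library left out, chosen after seeing the data. The steps were tested on simulated data. Results of some listed genes are not reported here.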

Additional observations from a re-analysis of the deposited data

How the results depend on the processing

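The number of libraries per genotype (3) limits every test, and members with few counts, Ckm and Myl1 above all, are limited by depth. No paired analysis was possible because replicate numbers are not shared between genotypes. Fitted log2 fold changes of members moved by more than the spread between replicates in 12 of 222 fits with 1 library left out and in 0 of 250 with other settings. Companion genes called in double mutants against wild type kept their side of the threshold in 78 of 132 fits with 1 library left out and 117 of 154 with other settings, and counts over lists moved in 46 of 384 and 37 of 432. None of the called companion genes changed direction in these fits, while some ratios of sums near 0 changed sign, as given here. The cause of each change was not tested.

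Liver companions called in double mutants against wild type (6) were 8 with DESeq2, 5 with limma, 3 with all 12 libraries in the fit, 4 with 9 libraries of 1 run, and 2 (without wild type 37) to 9 (without wild type 30) with 1 library left out. Muscle companions (2) were 1 with RLE factors, 3 with library size only, 6 with DESeq2, 0 with all genes of at least 1 count, 1 with all 12 libraries, 0 with 9 libraries of 1 run, 1 with limma, and 0 to 3 with 1 library left out. In Hoxa-/- Hoxc+/- against wild type muscle companions ranged from 0 to 1. In Hoxa+/- Hoxc-/- against wild type DESeq2 called 5 liver and 1 muscle companions, and leaving out 1 library gave 0 to 1 liver companions. In double mutants against Hoxa-/- Hoxc+/- DESeq2 called 1 of each, the fit of all 12 libraries called 1 liver companion, and leaving out 1 library gave 0 to 1 of each.

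The log2 ratio of the summed liver members to wild type was 0.48 to 0.98 in double mutants with 1 library left out, 2.15 without Afp and 1.31 as a mean of log2 values. It was 0.35 to 0.79, 2.60 and 1.21 in Hoxa-/- Hoxc+/-, and -0.01 to 0.52, 2.07 and 1.01 in Hoxa+/- Hoxc-/-. Between double mutants and Hoxa-/- Hoxc+/- it was -0.07 to 0.37, and -0.45 without Afp, which became 0.35 without Hoxa-/- Hoxc+/- 20 as well. For muscle members it was 0.84 to 1.82 in double mutants and 2.03 without Tnnt3 (3.36 without wild type 55 as well), -0.42 to 0.76 in Hoxa-/- Hoxc+/- and -0.04 with library size only, 0.10 to 1.08 in Hoxa+/- Hoxc-/-, and 0.83 to 1.53 between double mutants and Hoxa-/- Hoxc+/- and 1.75 without Tnnt3 (2.61 without Hoxa-/- Hoxc+/- 20 as well). These pairs of omissions were chosen after seeing the data, and of 48 such values 4 moved by more than the spread between replicates.

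Over all genes, the 2171 calls in double mutants against wild type became 3296 with DESeq2, 1190 with all 12 libraries, 690 with 9 libraries, 1215 with limma and 535 to 3386 with 1 library left out; library size only gave 742 higher and 1649 lower, against 999 and 1172. The 376 calls in Hoxa+/- Hoxc-/- became 1274 with DESeq2, 149 with all 12 libraries, 158 with limma and 60 to 549 with 1 library left out. The 0 calls of edgeR in Hoxa-/- Hoxc+/- became 18 with DESeq2, 2 with all 12 libraries, 1 with limma and 8 without Hoxa-/- Hoxc+/- 20, with 360 genes at an unadjusted p of 0.05. The 0 calls of edgeR between double mutants and Hoxa-/- Hoxc+/- became 489 with DESeq2, 540 with all 12 libraries, 181 with 9 libraries, 1 with limma and 687 without Hoxa-/- Hoxc+/- 20, with 1787 at an unadjusted p of 0.05.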

Other observations

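Some genes of the marker lists, chosen here after their values were seen, had patterns of their own. Actn3, the alpha-actinin of fast muscle fibres, was 3.73, 3.82 and 5.52 CPM in wild type 30, 37 and 55, 11.8, 0.339 and 0.448 CPM in Hoxa-/- Hoxc+/- 20, 31 and 33, 6.48, 3.77 and 3.82 CPM in Hoxa+/- Hoxc-/- AC38, AC110 and AC115, and 6.55, 12.1 and 6.97 CPM in double mutants 24, 27 and 29. Hoxa-/- Hoxc+/- 31 and 33 lay below all other libraries while 20 was nearly the highest. Fgb, the beta chain of fibrinogen, was 0.106, 0.0925 and 3.07 CPM in wild type, 2.68, 6.32 and 2.48 CPM in Hoxa-/- Hoxc+/-, 2.34, 2.05 and 3.37 CPM in Hoxa+/- Hoxc-/- and 5.32, 1.58 and 2.17 CPM in double mutants, in the same order. It was low in wild type 30 and 37 only, and it did not share the order of Fgg, with which its protein assembles.

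Adrenal genes in double mutant 29 included Th and Dbh, enzymes of catecholamine synthesis, at 1.37 and 1.59 CPM against at most 0.715 and 0.255 CPM elsewhere, and Cyp11b1, which makes corticosterone, at 0.741 CPM against at most 0.0925 CPM. Pnmt, which makes adrenaline, did not share this, at 0.988 CPM there, 0.236 and 0 CPM in double mutants 24 and 27, and 1.08 to 1.86 CPM in the other genotypes.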
